A study of Astyanax mexicanus with 14 samples.

Results

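Cave and surface larvae of the Mexican tetra (Astyanax mexicanus) were compared after both had received the same exposure to UV-B, the DNA-damaging middle band of ultraviolet light. The comparison used the UV-B libraries alone, which were 7 of the 14 libraries of the series and were chosen by their sample labels: 3 from cavefish (replicates 1, 2 and 4) and 4 from surface fish (replicates 1 to 4). Each library was made from RNA of a pool of 4 whole larvae at 6 days post-fertilization, collected 90 min after 60 s of UV-B. The labels give the genotypes as Pachon cave morph and surface morph and name no transgene, allele or drug. The other 7 libraries were controls of the same age given 60 s of white light, 3 from cavefish (replicates 2, 3 and 4) and 4 from surface fish, and they gave the population differences without UV-B. They entered the interaction test described below but not the comparison after UV-B. The controls were other larvae, so they stand for the state without UV-B and not for the same animals at an earlier time. The labels do not say whether replicate pools came from separate clutches, so the p-values measure the spread between these pools, which may be technical.

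UV-B fuses neighbouring pyrimidines in DNA. Fish remove these lesions with light-driven photolyases and by nucleotide excision repair, in which Ddb2 recognises the lesion, and the exposure also switches on immediate early transcription factors, inflammatory signals and the p53 and integrated stress responses. Surface fish have functional eyes, whereas in Pachón cavefish the eye starts to form and then degenerates. The larval clock of fish is set by light through genes such as per2 and cry1a. The question was therefore which genes differed between the populations 90 min after the same exposure, and which of these differences the controls did not have.

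The deposited counts summed to between 7.42 M and 10.56 M per UV-B library (M, mega-counts), and 3 counts in a library corresponded to between 0.277 and 0.460 normalised CPM (counts scaled to a common library size with TMM factors). The deposited table may hold a single strand of each library, in which case totals understate the sequencing. In a principal component analysis of the 7 UV-B libraries over the 500 genes with the highest variance, component 1 took 96.0% of that variance and placed all 3 cave libraries apart from all 4 surface libraries, and component 2 took 1.82%. The spread between replicates, as a biological coefficient of variation, was 12.3% in cave UV-B and 12% in surface UV-B libraries, against 18.7% in cave controls and 13% in surface controls, so the UV-B comparison had more power than that of the controls. Names were available for 2078 of 19076 genes and came from the study's lists of UV-B-responsive genes, so the named genes are not a random sample. Because the reads were mapped to a surface fish genome, and because libraries were whole larvae, a lower transcript level in cavefish, cave alleles that map less well, fewer cells of a type and less RNA per cell cannot be told apart.

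Nearly as many genes were higher as were lower in cavefish after UV-B, but the large differences were mostly towards lower values in cavefish. Of 15510 genes tested, 6872 (44.3%) passed an adjusted p of 0.05 by edgeR's quasi-likelihood test, 3363 (21.7%) higher in cavefish and 3509 (22.6%) lower. The difference was at least 2-fold in 2455 genes (15.8% of those tested), of which 1137 were higher and 1318 were lower. Among the 415 genes that differed at least 8-fold, 322 (77.6%) were lower in cavefish and 93 were higher. In 7309 genes (47.1%) the 3 cave libraries and the 4 surface libraries did not overlap. The balance of directions rests on the scaling: with library totals in place of TMM factors the median over all genes moved to -0.34 on the log2 scale, and 1567 genes were higher and 6651 lower (19.1% of calls higher against 48.9%). All fold changes below are cave minus surface with TMM factors and are thus relative to the median gene. Where counts of a gene list with library totals are given below, they are to be read beside these 1567 higher and 6651 lower genes. The shares of all genes with a name, given beside each list, are with TMM factors. Of the genes with a name, 1095 of 2055 (53.3%) were called, 580 higher (28.2%) and 515 lower (25.1%).

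Controls already held much of this difference. Among controls, 4367 of 15812 genes (27.6%) were called, 2003 higher (12.7%) and 2364 lower (15%) in cavefish, and of the genes with a name 706 of 2073 (34.1%) were called. Over the 15370 genes tested in both comparisons, which share no library, 3267 were called in both, and 3237 of them had the same direction, 1505 higher and 1732 lower in cavefish. Among the genes tested in both, the 3267 were 48% of the calls after UV-B and 76.5% of the calls in controls. The log2 fold changes of both comparisons had a Pearson r of 0.869 across genes, which are not independent replicates. A further 3544 genes were called after UV-B alone, with an unchanged sign in controls for 81.8% of them. A call in one comparison and none in the other does not show that the difference changed, and this was tested as the interaction of population and exposure in a fit of all 14 libraries. It called 596 of 16104 genes (3.7%), 227 (1.41%) with a more positive and 369 (2.29%) with a more negative cave minus surface difference after UV-B. Of the 3544 genes called after UV-B alone, 320 (9.03%) also passed the interaction test, 117 higher and 203 lower in cavefish. The interaction used the same UV-B libraries, so it is not independent of the first test. Among genes with a name, 315 of 2077 (15.2%) passed it. Its total rested on single libraries. It was 383 without surface control replicate 1, 392 without surface control replicate 2, 394 without surface UV-B replicate 4, 381 without cave control replicate 3 and 326 without cave UV-B replicate 4. It rose to 819 without surface control replicate 4 and to 773 without cave control replicate 4.

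**Figure D1:**
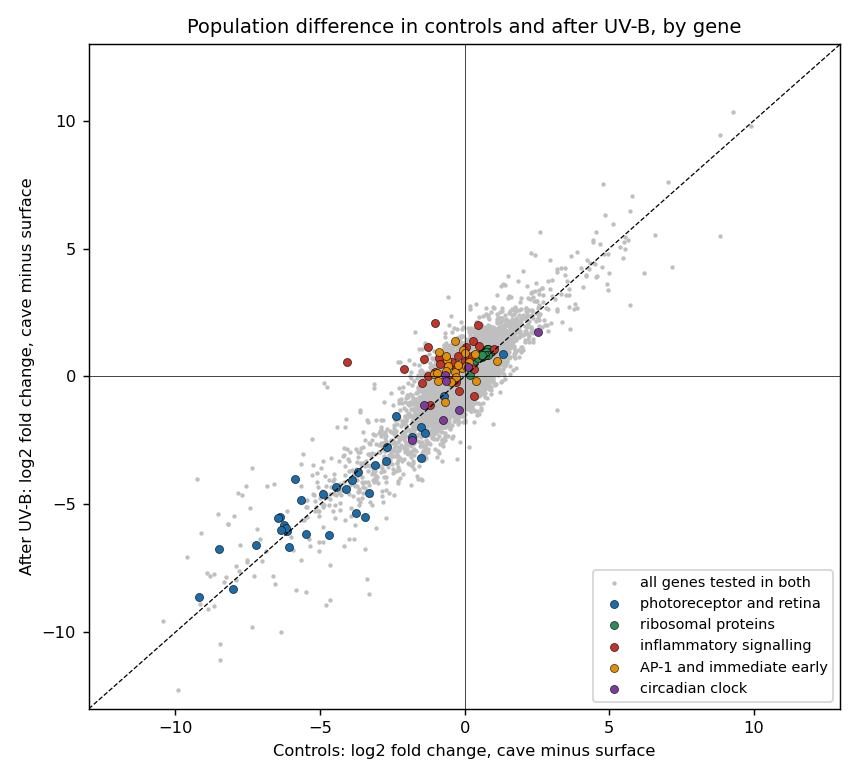
Each point is a gene tested in both comparisons, with its cave minus surface log2 fold change in controls on the x axis and after UV-B on the y axis, and the dashed line marks equal values. Photoreceptor and retina genes lie at the lower left near the line, ribosomal protein genes form a tight group just above 0 on both axes, and most members of the inflammatory and AP-1 lists lie above the line.

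Genes of the eye were among the genes with the lowest values in cavefish. Of 33 photoreceptor and retina genes, 32 were lower in cavefish after UV-B and 1 was higher, with a median log2 fold change of -4.60 against 0.00015 over all genes tested, and the counts in controls were the same (32 lower and 1 higher, median -4.45). Of all genes with a name, 25.1% were lower and 28.2% higher after UV-B, and 34.1% were called in controls. Summed over the list, surface UV-B libraries held between 6248 and 6917 normalised CPM and cave UV-B libraries between 263 and 309. In every leave-one-out fit after UV-B all 33 stayed called.

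The red-sensitive cone opsin opn1lw1 was at 1209, 1296, 1233 and 1383 normalised CPM in surface UV-B replicates 1 to 4 and at 11.6, 11.5 and 16.0 in cave UV-B replicates 1, 2 and 4. This was a log2 fold change of -6.60 after UV-B (SE 0.15), beside -7.21 in controls. The short-wavelength cone opsin opn1sw2 was at 188 ± 20.5 normalised CPM in surface UV-B libraries (SD, n = 4) and at 3.29 ± 0.95 in cave UV-B libraries (SD, n = 3). Both cone opsins thus lay at low levels in every cave UV-B library, without overlap between the populations.

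Genes that carry the light signal onward from the opsins had the same direction. The cone phosphodiesterase gene pde6c was at 370 ± 20.8 normalised CPM in surface and 5.58 ± 1.33 in cave UV-B libraries (log2 fold change -6.03, SE 0.14). The cone transducin gnat2 was at 105 ± 6.22 and 1.63 ± 0.514 (log2 fold change -6.01, SE 0.16). Arrestins, which switch activated opsins off, followed with sagb at -6.18 (SE 0.16) and saga at -5.49 (SE 0.29) on the log2 scale. pdcb, a phosducin that binds transducin subunits, was at -6.29 (SE 0.31). Structural genes of the outer segment and its surroundings were as low: prph2b, which shapes the disc rim, had 77.8, 103, 98.5 and 102 normalised CPM in surface fish and 0.140, 1.53 and 0.995 in cavefish. The retinol dehydrogenase RDH8, which acts in the visual cycle, held between 43.6 and 60.9 in surface fish and was at 0, 0.614 and 0.871 in cavefish. At the synapse of photoreceptors, cplx4c, a complexin, had 718 counts over the 4 surface UV-B libraries and 1 count over the 3 cave UV-B libraries, a ratio of library-size-adjusted counts of 418 (95% interval 74.8 to 16543, counting error only).

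Transcription factors of the photoreceptor lineage had smaller log2 fold changes than these cone opsins. crx, needed for photoreceptor differentiation, was at 122, 131, 132 and 140 normalised CPM in surface fish and at 19.0, 17.8 and 20.6 in cavefish after UV-B (log2 fold change -2.77, SE 0.10). nrl, a rod determinant in mouse, had a log2 fold change of -4.82 (SE 0.43) and nr2e3 had -4.39. rx1, an eye field homeobox gene, was at -2.21. The smallest difference among the lower genes was that of rgra, an opsin of the retinal pigment epithelium and glia in mammals (RGR), at 88.4 ± 4.41 normalised CPM in surface and 52.4 ± 3.96 in cave UV-B libraries (log2 fold change -0.75, SE 0.092). The one list member that was higher in cavefish was cngb3.2, named as a subunit of the cone cyclic nucleotide-gated channel, with 32.1, 30.7, 31.1 and 35.2 normalised CPM in surface fish and 58.5, 53.4 and 63.5 in cavefish (log2 fold change 0.86, SE 0.10, adjusted p = 3.34e-06). It was also higher in cave controls (1.33, SE 0.14).

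For 4 of the 33 genes the difference was larger after UV-B than in controls by the interaction test, which 15.2% of all genes with a name passed. trpm1b, the channel of ON bipolar cells in mammals, was at 67.7 ± 7.97 normalised CPM in surface UV-B libraries (SD, n = 4) and 7.39 ± 1.91 in cave UV-B libraries (SD, n = 3). Controls held 52.7 ± 5.66 in surface fish (n = 4) and 18.9 ± 3.06 in cavefish (n = 3), so its log2 fold change went from -1.51 in controls to -3.18 after UV-B (interaction -1.70, SE 0.23, adjusted p = 0.000233). six7, a homeobox gene of cone opsin expression in zebrafish, followed with an interaction of -1.28 (SE 0.29, adjusted p = 0.0171). The interaction calls of cdhr1a, the photoreceptor cadherin (-1.52, SE 0.37, adjusted p = 0.0237), and of impg1b, a proteoglycan of the interphotoreceptor matrix (-2.09, SE 0.53, adjusted p = 0.0289), were lost in 5 of 20 and 6 of 20 alternatives. The former was lost without cave control replicate 2 (adjusted p = 0.104), cave UV-B replicate 2 (0.0617) or cave UV-B replicate 4 (0.0990), and the latter without surface UV-B replicate 4 (0.0501), cave control replicate 3 (0.119) or cave UV-B replicate 1, 2 or 4 (0.0685, 0.0758 and 0.0880). Over the list the number of interaction calls ran from 1 to 5 when single libraries were left out, lowest without cave UV-B replicate 2. The cave levels behind cdhr1a and impg1b were between 0.460 and 2.13 normalised CPM, close to the level of 3 counts.

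**Figure D2:**
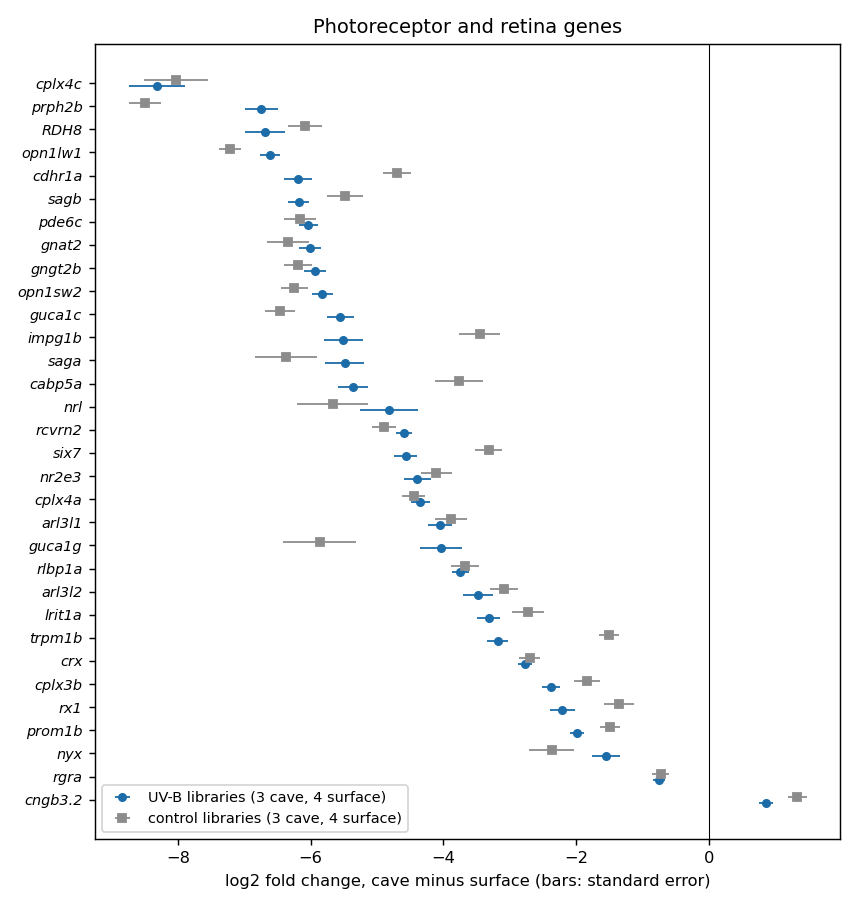
Log2 fold change (cave minus surface, x axis) of 32 photoreceptor and retina genes, in UV-B libraries (circles) and in controls (squares), with standard errors as bars. All but cngb3.2 lie below 0 in both, from -8.31 for cplx4c to -0.75 for rgra after UV-B, and the circle of trpm1b lies to the left of its square.

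Among 8 clock genes, 4 were lower and 2 were higher in cavefish after UV-B (median log2 fold change -0.64), beside 25.1% and 28.2% of all genes with a name. In controls 5 were lower and 1 was higher (median -0.66), beside 34.1% of all genes with a name called. per2, a light-induced clock gene in zebrafish, differed between the populations after UV-B and not detectably in controls. In surface fish it was at 55.5, 55.4, 62.5 and 62.4 normalised CPM in control replicates 1 to 4 and at 82.1, 88.4, 81.1 and 78.9 after UV-B. In cavefish it was at 50.5, 54.5 and 53.9 in control replicates 2, 3 and 4 and at 30.2, 34.8 and 33.8 in UV-B replicates 1, 2 and 4. Every surface UV-B library thus lay above the surface controls and every cave UV-B library below the cave controls. No difference was detected in controls (log2 fold change -0.18, SE 0.11, adjusted p = 0.242), whereas after UV-B it was -1.33 (SE 0.098, adjusted p = 1.09e-08), and the interaction was -1.17 (SE 0.14, adjusted p = 7.72e-05).

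cry1a, a light-induced cryptochrome that represses the clock, was lower in cavefish in both comparisons and more so after UV-B. Its level was 167 ± 12 normalised CPM in surface and 50.8 ± 10.7 in cave UV-B libraries (log2 fold change -1.72, SE 0.12), against 141 ± 5.61 and 85.2 ± 2.16 in controls (-0.75, SE 0.097), with an interaction of -0.99 (SE 0.16, adjusted p = 0.000986). rorc, a nuclear receptor of the ROR family, had the largest difference of the list after UV-B, with 55.5, 54.7, 45.8 and 63.5 normalised CPM in surface fish and 9.37, 7.82 and 11.6 in cavefish (log2 fold change -2.50, SE 0.15). Its interaction did not pass (-0.72, SE 0.21, adjusted p = 0.0612). bhlhe40, a repressor of clock transcription, was at -1.11 (SE 0.097) after UV-B and -1.42 (SE 0.14) in controls. dbpb, a bZIP factor of clock output, went the other way: it was at 32.6, 33.6, 29.0 and 28.6 normalised CPM in surface UV-B libraries and 104, 101 and 101 in cave UV-B libraries (log2 fold change 1.72, SE 0.094). In cave controls it had been at 160 ± 8.44, so the difference was smaller after UV-B (interaction -0.83, SE 0.13, adjusted p = 0.00112). The interaction calls of per2, cry1a and dbpb held in all 21 alternatives. They were the only interaction calls among the 8 clock genes, beside 15.2% of all genes with a name.

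DNA repair genes with a name were few, and their differences were small. Of 11, 3 were lower and 1 was higher in cavefish after UV-B (median log2 fold change -0.093), beside 25.1% and 28.2% of all genes with a name. With library totals 6 were lower and none was higher (median -0.43), beside 6651 lower and 1567 higher among all genes tested (median -0.34). None was called in controls and none passed the interaction test, by edgeR, DESeq2 or limma-voom. By edgeR, 34.1% of all genes with a name were called in controls and 15.2% passed the interaction test. At an unadjusted p under 0.05, edgeR put 1 higher and 1 lower in controls and 1 interaction higher and 2 lower. A change of the population difference with UV-B was thus not detected for these genes. The test recovered 62.3% of 2-fold interactions in simulated counts, so a change of that size can be missed. Smaller changes, such as those of cpdp and ddb2, were not simulated, so their recovery is not known. cpdp, the photolyase of cyclobutane pyrimidine dimers, was at 94.4, 72.2, 87.2 and 83.8 normalised CPM in surface fish and 56.4, 59.7 and 70.3 in cavefish after UV-B. The groups did not overlap, by a margin that was small against their spread (log2 fold change -0.44, SE 0.11, adjusted p = 0.00329). In controls cpdp was at 58.5 ± 0.731 in surface and 59.7 ± 7.89 in cavefish (log2 fold change 0.0042, adjusted p = 0.981), and the interaction was -0.47 (SE 0.16, adjusted p = 0.106).

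ddb2 was at 47.7, 37.3, 64.0 and 40.4 normalised CPM in surface fish and 31.2, 26.7 and 32.3 in cavefish after UV-B (log2 fold change -0.65, SE 0.16, adjusted p = 0.00312). Surface UV-B libraries varied more than cave UV-B libraries here (SD 11.9 and 2.98), and the interaction did not pass (-0.52, SE 0.21, adjusted p = 0.199). Over the alternatives the log2 fold change of ddb2 ran from -0.99 to -0.47 and that of cpdp from -0.78 to -0.37, all called. mcm7, a subunit of the replicative helicase, was at 111 ± 4.69 in surface and 78.6 ± 7.93 in cave UV-B libraries (log2 fold change -0.50, SE 0.092). ube2al, related to the ubiquitin-conjugating enzyme of post-replication repair (UBE2A in human), was the one that was higher, with 19.6, 23.1, 18.7 and 23.4 normalised CPM in surface and 35, 29.6 and 34.6 in cave UV-B libraries (log2 fold change 0.64, SE 0.13, adjusted p = 0.000674). With library totals ube2al was no longer called (0.30, adjusted p = 0.0847).

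**Figure D3:**
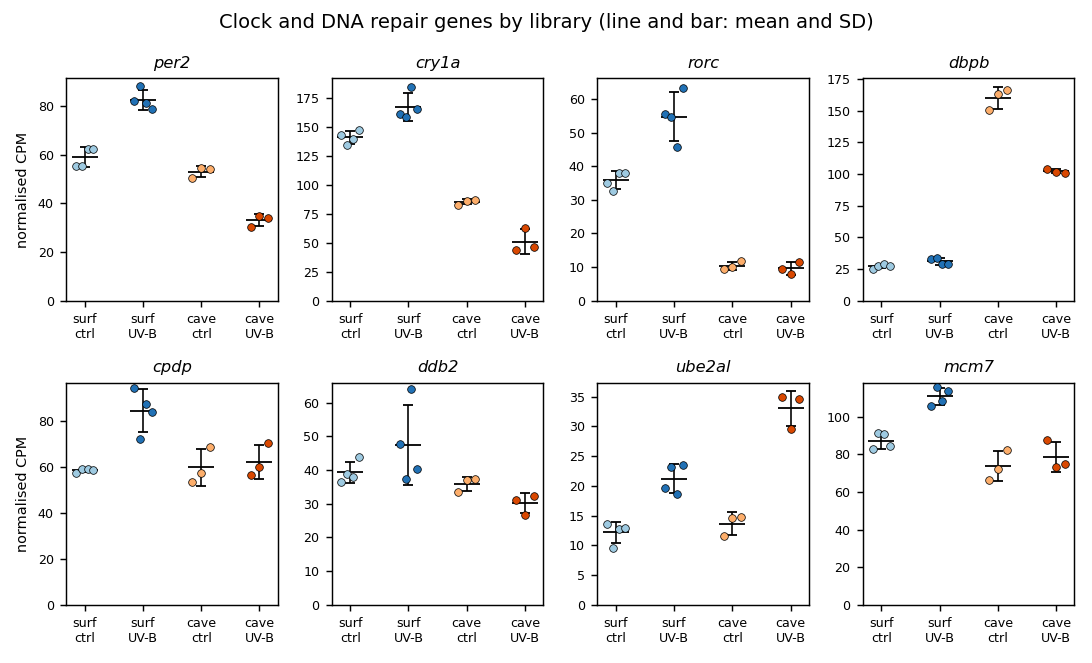
Normalised CPM (y axes, each from 0) of 4 clock genes and 4 DNA repair or replication genes in every library, for surface controls, surface UV-B, cave controls and cave UV-B, with the mean and SD of each group as line and bar. per2 and cry1a are highest in surface UV-B and lowest in cave UV-B libraries, dbpb is highest in cave controls, and the panel of cpdp shows surface UV-B libraries at 72.2 to 94.4 above the other groups' means.

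Immediate early genes called after UV-B were nearly all higher in cavefish, while those called in controls were nearly all lower. Of 22 genes of the AP-1 family and other immediate early genes, 10 were higher and 1 was lower in cavefish after UV-B (median log2 fold change 0.39). Among all genes with a name 28.2% were higher and 25.1% lower. In controls 1 of the 22 was higher and 8 were lower (median -0.33), beside 34.1% of all genes with a name called. The 8 became 5 without cave control replicate 3, surface control replicate 1 or surface control replicate 3. The interaction was called for 9, all towards higher values in cavefish, beside 15.2% of all genes with a name. This and the other lists were chosen from the study's UV-B-responsive genes with earlier results of these data known. Their counts therefore describe these members and not whole pathways. With library totals the list held 5 higher and 4 lower genes after UV-B (median 0.050). Muscle genes were also higher in cave UV-B libraries (10 of 18, described below), and their part in the results of this and the next lists (inflammation, stress, heat shock and redox) was not tested.

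fosab, which encodes c-Fos, was at 89.0, 97.8, 86.3 and 73.3 normalised CPM in surface UV-B libraries and at 211, 226 and 233 in cave UV-B libraries. Its controls overlapped, at 13.2 ± 3.58 in surface fish and 10.9 ± 5.59 in cavefish, so its log2 fold change came to 1.37 (SE 0.099, adjusted p = 7.94e-09) after UV-B and -0.33 (SE 0.29) in controls, with an interaction of 1.68 (SE 0.30, adjusted p = 0.00344). fosl1a, another Fos family member, was close to the level of 3 counts per library in controls, at 1.2 ± 0.144 and 0.650 ± 0.258 normalised CPM, and was at 18.2, 20.5, 26.1 and 18.2 in surface and 36.2, 44.6 and 38.6 in cave UV-B libraries. ier2a, an immediate early response gene, was at 58.2 ± 4.35 in surface and 118 ± 12.8 in cave UV-B libraries (log2 fold change 1.01, SE 0.098) and at 13.9 ± 2.40 and 13.5 ± 2.55 in controls. In each of these genes the lowest cave UV-B library lay above the highest surface UV-B library.

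The exception was nr4a3, an orphan nuclear receptor, with 25.0, 23.0, 25.6 and 22.0 normalised CPM in surface and 10.2, 12.3 and 12.8 in cave UV-B libraries (log2 fold change -1.02, SE 0.15). It was lower in cave controls as well (-0.67, SE 0.17) and its interaction did not pass (adjusted p = 0.419). Other members differed in controls and were not called after UV-B: junba, a Jun family member, was at -0.97 on the log2 scale (SE 0.22, adjusted p = 0.00508) in controls and 0.15 (SE 0.15, adjusted p = 0.434) after UV-B, and its interaction passed (1.09, SE 0.28, adjusted p = 0.0295).

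The called members of the inflammatory list mostly had the same directions. Of 27 tested, 12 were higher and 1 was lower in cavefish after UV-B (median log2 fold change 0.57), beside 28.2% and 25.1% of all genes with a name. In controls 2 were higher and 10 lower (median -0.38, 26 tested), beside 34.1% of all genes with a name called. The interaction test was passed by 13, all towards higher values in cavefish, beside 15.2% of all genes with a name. These counts are of members tested after UV-B. With a member that was not tested there, 11 were lower in controls and 14 passed the interaction test. When single UV-B libraries were left out, between 9 and 14 were higher, and with library totals 7 were higher and 2 were lower (median 0.24). tnfrsf9a, a costimulatory receptor of the TNF receptor family (4-1BB in mammals), had the largest difference of the list. It was at 6.52, 8.59, 9.56 and 6.76 normalised CPM in surface UV-B libraries and 41.8, 30.5 and 29.3 in cave UV-B libraries (log2 fold change 2.10, SE 0.17, adjusted p = 4.30e-08). In controls the order was the opposite, with 32.5, 13.4, 18.7 and 13 in surface and 8.68, 10.8 and 9.30 in cavefish (log2 fold change -1.03, SE 0.29, adjusted p = 0.0184), and the interaction was 3.11 (SE 0.37, adjusted p = 7.72e-05). The control call of tnfrsf9a held in 6 of the 7 fits that left out a control library.

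socs3a, a feedback inhibitor of cytokine signalling, was at 5.12, 4.53, 6.33 and 4.25 normalised CPM in surface and 18.7, 26.5 and 15.3 in cave UV-B libraries (log2 fold change 1.99, SE 0.22). No difference was detected in controls (0.46, SE 0.31, adjusted p = 0.303). Its interaction (1.51, SE 0.39, adjusted p = 0.0346) was lost in 12 of 21 alternatives, 9 of them fits without a single library, with an adjusted p of up to 0.104. The same holds for map3k8, a kinase upstream of MAP kinase signalling, with a log2 fold change of 1.39 (SE 0.24) after UV-B and an interaction of 1.07 (adjusted p = 0.0421) that was lost in 13 of 21. Both kept their call after UV-B in all 15 alternatives. The 2 identifiers named il1b, a cytokine gene, were far lower in cave controls (log2 fold change -4.06, SE 0.59, and -2.11, SE 0.22) and were not called after UV-B (0.56, SE 0.29, and 0.30, SE 0.12), with interactions of 4.59 (SE 0.70, adjusted p = 0.000785) and 2.38 (SE 0.27, adjusted p = 5.90e-05). tnfrsf1b, a TNF receptor, was the member that was lower, at 3.53 ± 1.11 normalised CPM in surface and 1.62 ± 0.232 in cave UV-B libraries (log2 fold change -1.13, SE 0.38, adjusted p = 0.0219).

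In 30 genes the populations differed in opposite directions without and with UV-B, 21 lower in cave controls and higher in cave UV-B libraries and 9 the reverse. Of these genes 25 had a name, and all 30 passed the interaction test. Opposite calls in the same libraries nearly fix that outcome in advance, so it adds no support. Only 4 of the 30 genes, bcl3, cyba, adarb2 and rtn4rl2b, kept both calls in all 14 leave-one-out fits. With library totals 6 of the 30 kept both, among them bcl3, cyba and rtn4rl2b but not adarb2. bcl3, a nuclear IκB family member, was at 17.0, 9.36, 10.3 and 9.69 normalised CPM in surface controls and 5.12, 3.47 and 5.94 in cave controls, and at 4.31, 3.23, 4.84 and 1.75 in surface and 7.41, 8.59 and 7.71 in cave UV-B libraries. The populations did not overlap in either condition, and the log2 fold change went from -1.27 (SE 0.27) to 1.17 (SE 0.30). cyba, the p22phox subunit of NADPH oxidases, was at 32.8 ± 3.15 in surface and 17.9 ± 2.72 in cave controls. After UV-B it was at 26.4, 19.1, 24.3 and 15.5 in surface and 38.3, 37.1 and 37.4 in cave libraries, and the log2 fold change went from -0.89 (SE 0.15) to 0.82 (SE 0.15). adarb2, an RNA-editing family member of the brain, showed the reverse, with a log2 fold change of 0.78 (SE 0.22) in controls and -0.85 (SE 0.20) after UV-B, and so did rtn4rl2b, a Nogo receptor family member, with 0.63 in controls and -0.67 after UV-B.

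Further genes of this kind belonged to the lists above, and their calls were less stable. cebpb, a bZIP factor of acute-phase and inflammatory transcription, was at 175, 184, 185 and 177 normalised CPM in surface and 330, 337 and 278 in cave UV-B libraries (log2 fold change 0.81, SE 0.090), and at 29.9 ± 7.5 and 19.3 ± 1.14 in controls (-0.65, SE 0.19, adjusted p = 0.0203). Its control call held in 4 of the 7 fits that left out a control library. zc3h12a, an RNase that degrades cytokine transcripts, was at 0.67 (SE 0.25, adjusted p = 0.0383) after UV-B and -1.39 (SE 0.26) in controls, and its call after UV-B was lost without surface UV-B replicate 2, 3 or 4 (adjusted p = 0.0768, 0.0550 and 0.104) or cave UV-B replicate 2 (0.240). ptgs2b, a prostaglandin synthase, was at 0.73 (SE 0.19) after UV-B and -0.88 (SE 0.19) in controls, and its call after UV-B was lost without cave UV-B replicate 4 (adjusted p = 0.0543). NR4A1, an immediate early nuclear receptor, was at 0.62 (SE 0.20, adjusted p = 0.0190) and -0.60 (SE 0.19), and without cave UV-B replicate 4 neither its call after UV-B (adjusted p = 0.182) nor its interaction (0.0739) remained. The control call of NR4A1 held in 2 of the 7 fits that left out a control library. With library totals the calls of zc3h12a, ptgs2b and NR4A1 after UV-B were lost (adjusted p = 0.273, 0.107 and 0.278).

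**Figure D4:**
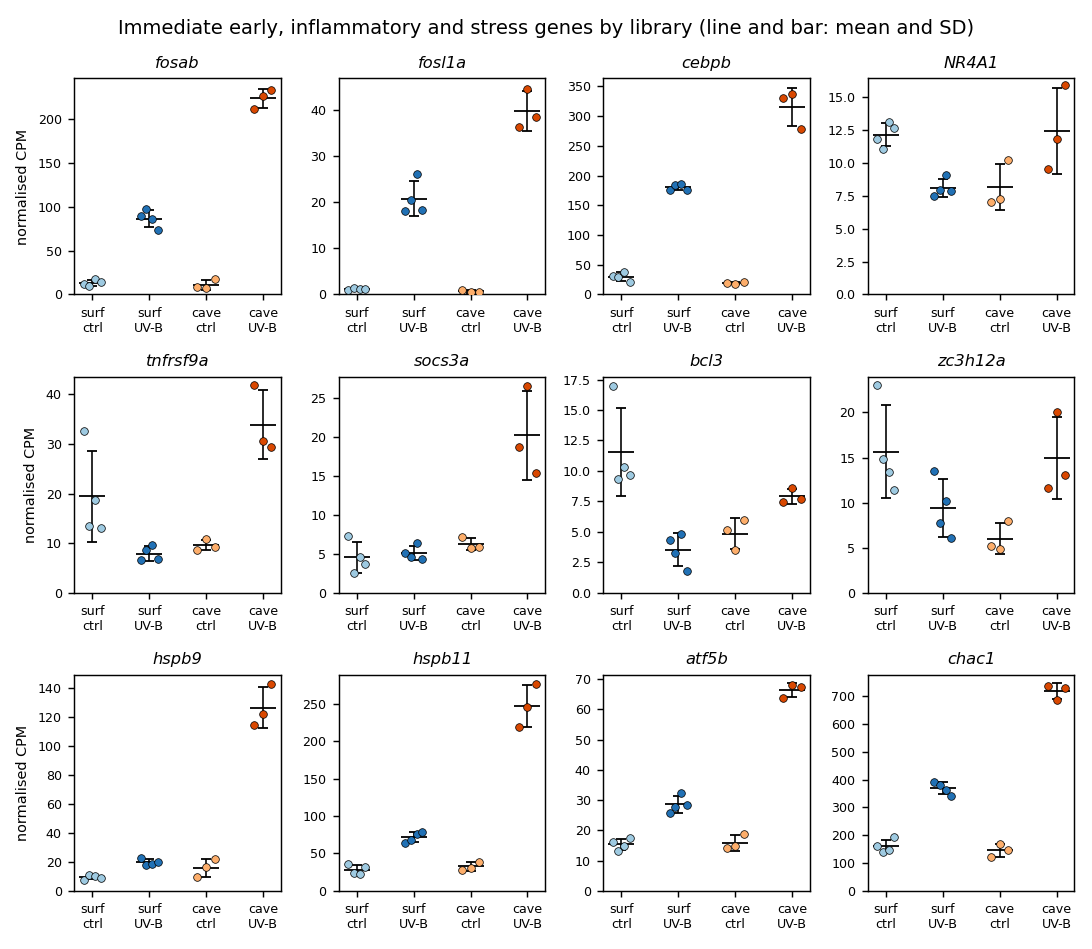
Normalised CPM (y axes, each from 0) of 12 immediate early, inflammatory and stress genes in every library, by group, with the mean and SD as line and bar. In fosab, fosl1a, cebpb, socs3a, hspb9, hspb11, atf5b and chac1 the 3 cave UV-B libraries lie above all other libraries, and in bcl3 and zc3h12a the surface controls have the highest mean.

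Genes of the growth arrest and integrated stress response were mostly higher in cavefish after UV-B, 11 of 17 with none lower (median log2 fold change 0.58). Among all genes with a name 28.2% were higher and 25.1% lower. In controls 4 of the 17 were higher and 1 was lower (median 0.081), beside 34.1% of all genes with a name called. The interaction test was passed by 5, towards higher values in cavefish, beside 15.2% of all genes with a name. With library totals 8 were higher and 3 lower. The number higher in controls was 2 without cave control replicate 3, and the number of interactions was 3 without cave UV-B replicate 4, cave control replicate 2, surface UV-B replicate 2 or surface UV-B replicate 4. atf5b, a transcription factor of the integrated stress response, was at 25.6, 27.8, 32.5 and 28.4 normalised CPM in surface and 63.7, 68.0 and 67.4 in cave UV-B libraries (log2 fold change 1.22, SE 0.10, adjusted p = 5.77e-08). Its controls were at 15.4 ± 1.77 and 15.9 ± 2.57 (0.018, SE 0.16), and the interaction was 1.17 (SE 0.19, adjusted p = 0.00107). chac1, which degrades glutathione and is a target of that response, was at 390, 381, 362 and 342 in surface and 737, 685 and 731 in cave UV-B libraries (log2 fold change 0.96, SE 0.090), with an interaction of 1.10 (SE 0.17). sesn2, a stress-induced regulator of TORC1, was at 30.8 ± 2.47 and 57.8 ± 1.71 after UV-B and at 15.5 ± 1.86 and 16.2 ± 1.82 in controls (interaction 0.85, SE 0.18, adjusted p = 0.00943). ddit4, another inhibitor of TORC1, was at 245 ± 21.6 in surface and 460 ± 36.8 in cave UV-B libraries (log2 fold change 0.91, SE 0.095), and its interaction did not pass (0.51, SE 0.20, adjusted p = 0.188). cdkn1a, the p53 target that arrests the cell cycle, was higher in cavefish under both conditions, at 0.74 (SE 0.12) after UV-B and 1.06 (SE 0.14) in controls.

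Heat shock and chaperone genes were mostly higher in cavefish after UV-B, 12 of 18 with 1 lower (median log2 fold change 0.48). Among all genes with a name 28.2% were higher and 25.1% lower. In controls 1 of the 18 was higher and 2 were lower (median 0.16), beside 34.1% of all genes with a name called. Only 3 of the 18, hspb9, hspb11 and bag3, passed the interaction test, beside 15.2% of all genes with a name. That number ran from 2 to 5 when single libraries were left out. With library totals 4 were higher and 3 were lower. The number higher in controls rested on single libraries, since it was 6 without cave control replicate 2, 2 without surface control replicate 2 and 0 without each of the others. The small heat shock protein gene hspb9 was at 22.8, 17.6, 18.1 and 19.96 normalised CPM in surface and 114, 122 and 142 in cave UV-B libraries (log2 fold change 2.69, SE 0.11, adjusted p = 5.17e-12), and at 9.34 ± 1.54 and 15.8 ± 6.33 in controls (0.73, SE 0.24, interaction 1.94, SE 0.27, adjusted p = 0.000422). hspb11, a further gene named as a small heat shock protein, was at 63.9, 68.2, 75.3 and 78.7 in surface and 220, 247 and 277 in cave UV-B libraries (log2 fold change 1.79, SE 0.10), while its controls overlapped (28.1 ± 6.31 and 32.5 ± 5.80, interaction 1.58, SE 0.21, adjusted p = 0.000233). bag3, a co-chaperone of HSP70, was at 0.95 (SE 0.13) after UV-B, and its interaction (0.82, SE 0.19, adjusted p = 0.0202) was lost without cave UV-B replicate 2 (adjusted p = 0.0514) or 4 (0.0618). The called subunits of the chaperonin CCT were higher by little, from 0.36 for cct4 to 0.54 for tcp1 and cct6a. serpinh1b, the collagen chaperone HSP47, was lower in cavefish, at 173 ± 18.2 in surface and 66.9 ± 14.2 in cave UV-B libraries (log2 fold change -1.37, SE 0.13), and likewise in controls (-1.32, SE 0.14).

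Of 26 antioxidant and redox genes, 13 were higher and 2 were lower in cavefish after UV-B (median log2 fold change 0.30), beside 28.2% and 25.1% of all genes with a name. In controls 4 were higher and 5 lower (median 0.022), beside 34.1% of all genes with a name called. The interaction test was passed by 2, cyba and pgd, beside 15.2% of all genes with a name. With library totals the median turned to -0.033, with 7 higher and 7 lower. Without cave control replicate 2 the number higher in controls was 10. Interaction calls numbered 6 without cave control replicate 4, 5 without surface control replicate 4, 3 without cave UV-B replicate 4, 2 without surface UV-B replicate 3 and 1 without each of the others. Peroxidases of the peroxiredoxin and glutathione peroxidase families were among the higher genes, such as prdx1 with 77.5 ± 5.60 normalised CPM in surface and 139 ± 12.7 in cave UV-B libraries (log2 fold change 0.84, SE 0.094) and gpx4a with a log2 fold change of 0.83. mgst1.2, a microsomal glutathione transferase, had the highest value, with 17.1, 18.1, 23.3 and 20.7 in surface and 75.1, 63.7 and 73.7 in cave UV-B libraries (log2 fold change 1.84, SE 0.12), and it was higher in cave controls (1.2, SE 0.16). tkta, a transketolase of the pentose phosphate pathway, was far lower in cavefish, with 89.9, 108.2, 97.3 and 127 in surface and 16.5, 9.51 and 14.3 in cave UV-B libraries (log2 fold change -2.96, SE 0.16), and its difference in controls was -2.92 (SE 0.22). sod1 and cat, which encode superoxide dismutase and catalase, had log2 fold changes of 0.060 and 0.14 after UV-B and were not called.

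Ribosomal protein genes were higher in cavefish with and without UV-B. Of 37 (the list includes rack1 and faua), 36 were higher and none was lower after UV-B (median log2 fold change 0.93), beside 28.2% and 25.1% of all genes with a name. In controls 36 were higher (median 0.76), beside 34.1% of all genes with a name called. No interaction was called by edgeR, DESeq2 or limma-voom, and 0 at an unadjusted p under 0.05, beside 15.2% of all genes with a name called by edgeR. After UV-B 36 stayed called in every leave-one-out fit and also with library totals (median 0.58). Their differences lay close together, between 0.65 for rack1 and 1.07 for RPL27A among the called genes. rpl13a, used as a reference gene in the study's quantitative PCR, was at 2265, 1745, 2149 and 2556 normalised CPM in surface and 4242, 3324 and 4493 in cave UV-B libraries (log2 fold change 0.88, SE 0.13, adjusted p = 4.72e-05), and it was higher in cave controls by 0.70 (SE 0.12). rpsa was at 3308 ± 148 and 6930 ± 625 after UV-B (1.07, SE 0.11). The identifier named rpl19, at only 20.6 ± 6.80 and 21.2 ± 3.46, was the one not called, while another identifier named RPL19 had 0.93. Summed over the list, the genes held between 64120 and 84145 normalised CPM in surface and between 118628 and 154872 in cave UV-B libraries.

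Of 17 genes of glucose handling, 4 were higher and 4 were lower in cavefish after UV-B (median log2 fold change -0.18), beside 28.2% and 25.1% of all genes with a name. With library totals 2 were higher and 9 lower. Interactions were called for 4 of the 17, 3 towards higher and 1 towards lower values in cavefish, beside 15.2% of all genes with a name. That number ran from 1 to 4 when single libraries were left out. Higher genes numbered 2 without cave UV-B replicate 4, and lower genes 2 without surface UV-B replicate 1 or 3. slc2a1a, the glucose transporter GLUT1, was at 87.1, 93.1, 89.7 and 90.5 normalised CPM in surface and 27.6, 25.5 and 27.1 in cave UV-B libraries (log2 fold change -1.75, SE 0.094), and its difference in controls was -1.26 (SE 0.13). ppp1r3ca, which targets protein phosphatase 1 to glycogen, was at 7.45, 6.19, 8.06 and 6.54 in surface and 22.1, 24.1 and 30.8 in cave UV-B libraries (log2 fold change 1.87, SE 0.17), with an interaction of 1.17 (SE 0.27, adjusted p = 0.0199) that was lost without cave UV-B replicate 4 (adjusted p = 0.0752). igfbp1a, a binding protein of insulin-like growth factors, was at 360 ± 38.9 and 697 ± 47.3 after UV-B (0.96, SE 0.10) and at 92.0 ± 17.5 and 102 ± 23.9 in controls. pck1, the rate-limiting enzyme of gluconeogenesis, was lower in cavefish, by less after UV-B (-0.64, SE 0.12) than in controls (-1.70, SE 0.23). The interactions of igfbp1a (0.81, adjusted p = 0.0347) and pck1 (1.03, adjusted p = 0.0434) were lost in 12 and 14 of 21 alternatives.

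Of 16 genes of intestinal lipid handling, 7 were lower and 2 were higher in cavefish after UV-B (median log2 fold change -0.32), beside 25.1% and 28.2% of all genes with a name. In controls 10 were lower and none was higher (median -0.75), beside 34.1% of all genes with a name called. With library totals 12 were lower and 1 was higher after UV-B. Interactions were called for 4 of the 16, all towards higher values in cavefish, beside 15.2% of all genes with a name. That number ran from 3 to 6 when single libraries were left out. When single UV-B libraries were left out, between 5 and 10 were lower, and 1 was higher without cave UV-B replicate 1. apoba, the apolipoprotein B of lipoprotein particles, was at 1522, 1433, 1681 and 1468 normalised CPM in surface and 954, 991 and 899 in cave UV-B libraries (log2 fold change -0.69, SE 0.10). fabp2, the intestinal fatty acid binding protein, was at 770 ± 212 and 486 ± 90.9, and its groups overlapped because surface UV-B replicate 2 was at 460 (-0.66, SE 0.18, adjusted p = 0.00734). dgat1b, an enzyme of triglyceride synthesis, was higher in cavefish at 0.88 (SE 0.13), with -0.14 (SE 0.14) in controls and an interaction of 0.99 (SE 0.20, adjusted p = 0.00825). NPC1L1, the intestinal cholesterol transporter, was at 17.1, 13.8, 20.7 and 16.1 in surface and 32.5, 18.9 and 27.6 in cave UV-B libraries (0.64, SE 0.18) and at 13.9 ± 3.78 and 3.71 ± 0.694 in controls (-1.91, SE 0.26), an interaction of 2.52 (SE 0.33, adjusted p = 0.000233). The call of NPC1L1 after UV-B was lost without cave UV-B replicate 1 (adjusted p = 0.0690), and its interaction held in all 21 alternatives.

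Markers of enterocytes, which the lipid genes share, had a median log2 fold change of 0.26 after UV-B (5 of 15 higher and 2 lower) and -0.59 in controls (2 higher and 7 lower), and 5 passed the interaction test towards higher values in cavefish. These counts are to be read beside those of all genes with a name. Of these, 28.2% were higher and 25.1% lower after UV-B, 34.1% were called in controls and 15.2% passed the interaction test. With library totals 2 were higher and 5 lower (median -0.078). Interactions in the enterocyte list numbered 7 without surface control replicate 4, and 3 in most other fits without a single library. Their summed level was between 1362 and 2068 normalised CPM in surface UV-B and between 2089 and 2393 in cave UV-B libraries, and between 819 and 1433 in surface and 687 and 1040 in cave controls. Their part in the results of the lipid genes was not tested. The aminopeptidase gene anpepb was at 175, 141, 185 and 194 in surface and 619, 612 and 662 in cave UV-B libraries (log2 fold change 1.86, SE 0.11, interaction 0.90, SE 0.20, adjusted p = 0.0129). enpep, another aminopeptidase of the brush border, was at -1.73 (SE 0.14) after UV-B and -2.15 (SE 0.15) in controls, and vil1, which bundles actin in microvilli, at -0.65 (SE 0.13) and -1.24 (SE 0.22). clrn3 was at 18.6 ± 1.73 and 38.4 ± 1.86 after UV-B (1.05, SE 0.12, interaction 1.61, SE 0.29, adjusted p = 0.00315).

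Of 18 skeletal muscle genes, 10 were higher and 2 were lower in cavefish after UV-B (median log2 fold change 0.59), beside 28.2% and 25.1% of all genes with a name. In controls 5 were higher and 1 was lower (median 0.17), beside 34.1% of all genes with a name called. With library totals 5 were higher and 3 lower. Interactions were called for 2 of the 18, both towards higher values in cavefish, beside 15.2% of all genes with a name. That number ran from 0 to 4 when single libraries were left out. In controls 8 were higher without cave control replicate 2. acta1b, a skeletal actin, was at 14838, 13001, 13902 and 13428 normalised CPM in surface and 26109, 19241 and 27820 in cave UV-B libraries (0.82, SE 0.14). eno3, the muscle enolase, was at 301 ± 20.2 and 633 ± 46.1 (1.07, SE 0.093). ckmt2a, a mitochondrial creatine kinase, was the exception by a wide margin, with 529, 535, 577 and 595 in surface and 12.7, 11.4 and 18.5 in cave UV-B libraries (-5.28, SE 0.15), and -6.16 (SE 0.24) in controls. fbxo32, a ubiquitin ligase of muscle atrophy, was at 4.27 ± 0.977 and 8.96 ± 4.51, and its call (1.08, SE 0.31, adjusted p = 0.00856) was lost without cave UV-B replicate 4 (0.58, adjusted p = 0.162). Its interaction (1.62, SE 0.44, adjusted p = 0.0429) was lost in 12 of 21 alternatives, 9 of them fits without a single library, with adjusted p up to 0.187. Summed over the list, surface UV-B libraries held between 19408 and 21755 normalised CPM and cave UV-B libraries between 27047 and 37984.

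The share of genes called was lowest for skin. Of 14 epidermal genes tested, 2 were higher and 1 was lower in cavefish after UV-B (median log2 fold change 0.077), beside 28.2% and 25.1% of all genes with a name. In controls 5 were higher and 5 lower (median 0.12), beside 34.1% of all genes with a name called. With a member that was not tested after UV-B, 6 were lower in controls. With library totals none was higher and 5 were lower after UV-B, and in controls 2 were higher without cave control replicate 3. evpla and pkp3a, which encode envoplakin and plakophilin of cell junctions, were at 0.75 (SE 0.15) and 0.73 (SE 0.15), both lost with library totals (adjusted p = 0.0536 and 0.0627). krt99, a keratin, was at 55.5 ± 3.67 normalised CPM in surface and 27.2 ± 1.41 in cave UV-B libraries (-1.03, SE 0.11) and lower in cave controls as well (-1.64, SE 0.16).

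Of 28 synaptic and neuronal genes, 12 were lower and 4 were higher in cavefish after UV-B (median log2 fold change -0.31), beside 25.1% and 28.2% of all genes with a name. In controls 3 were higher and 3 lower (median 0.086), beside 34.1% of all genes with a name called. The interaction test was passed by 9, all towards lower values in cavefish, beside 15.2% of all genes with a name. Over all genes tested, 2.29% passed it towards lower and 1.41% towards higher values. The number in the list was 5 without cave UV-B replicate 4. With library totals 18 were lower and none was higher after UV-B. When single libraries were left out, higher genes after UV-B numbered 2 without cave UV-B replicate 2, surface UV-B replicate 1 or surface UV-B replicate 4, and lower genes in controls 6 without cave control replicate 2. GRM7, a metabotropic glutamate receptor, was at 17.2, 19.4, 18.7 and 16.0 normalised CPM in surface and 5.46, 6.29 and 6.47 in cave UV-B libraries (log2 fold change -1.55, SE 0.18), while controls were at 22.2 ± 2.14 and 22.4 ± 2.74 (interaction -1.57, SE 0.21, adjusted p = 0.000269). RIMS1, a scaffold of the presynaptic active zone, was at 66.3, 68.9, 67.5 and 64.6 in surface and 18.6, 26.5 and 23.8 in cave UV-B libraries (-1.54, SE 0.12, interaction -1.03, SE 0.17, adjusted p = 0.00212). The genes with the lowest values, sv2ba (-4.75, SE 0.15), a synaptic vesicle glycoprotein gene, and syt5b (-2.69, SE 0.11), a synaptotagmin gene, were as low in controls (-5.01 and -2.42). Of the pan-neuronal genes elavl4, rbfox3a and stmn1b, elavl4 was lower (-0.43, SE 0.090, adjusted p = 0.00100), and rbfox3a and stmn1b were at 0.036 and 0.080 and were not called. The summed level of the list was between 2343 and 2397 in surface and between 1959 and 2003 in cave UV-B libraries.

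**Figure D5:**
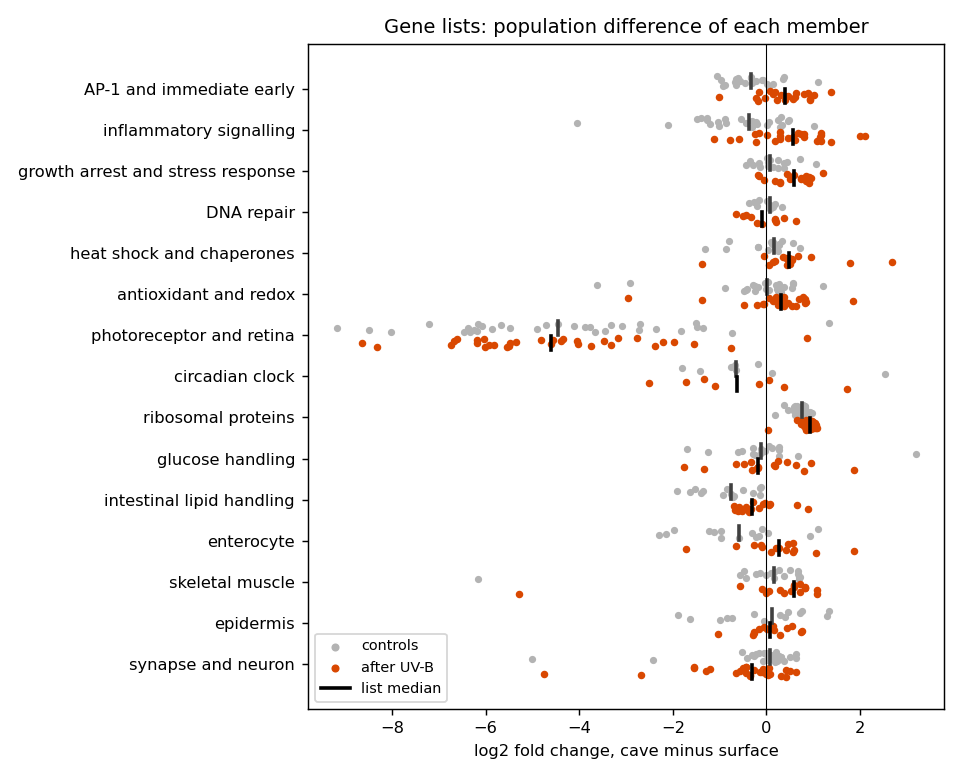
Cave minus surface log2 fold change (x axis) of every tested member of the 15 gene lists, in controls (grey) and after UV-B (orange), with the median of each list as a vertical bar. The medians of the AP-1 and inflammatory lists lie at -0.33 and -0.38 in controls and at 0.39 and 0.57 after UV-B, and those of the photoreceptor and ribosomal lists lie on the same side of 0 in both.

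Outside the lists, the highest value among named genes after UV-B was that of cyp2r1, the 25-hydroxylase of vitamin D. It was at 1.51, 2.12, 0.921 and 1.53 normalised CPM in surface and 49.0, 33.8 and 40.2 in cave UV-B libraries (log2 fold change 4.71, SE 0.21, adjusted p = 1.94e-11). In controls it was at 1.33 ± 0.305 and 17.3 ± 4.49 (3.69, SE 0.26), and the interaction did not pass (1.00, SE 0.37, adjusted p = 0.152). ppp1r27b, a regulatory subunit of protein phosphatase 1, was at 2.79, 1.66, 3.22 and 1.42 in surface and 20.8, 29.5 and 29.0 in cave UV-B libraries (3.55, SE 0.24), against 1.26 (SE 0.40) in controls (interaction 2.27, SE 0.46, adjusted p = 0.00806). ces2b, a carboxylesterase, followed with 2.59 (SE 0.25), and cdaa, a cytidine deaminase, with 2.16 (SE 0.20). ankrd1a, a muscle ankyrin repeat gene, was at 7.32 ± 1.55 in surface and 32.9 ± 6.79 in cave UV-B libraries (2.16, SE 0.19), and its interaction (1.00, adjusted p = 0.0284) was lost in 11 of 21 alternatives. SLC39A1, a zinc transporter, slc16a9b, a carboxylate transporter, and the kinase gene lrrk2 were at 2.07, 1.89 and 1.87, and all 3 were also higher in cave controls (1.14, 1.01 and 1.11).

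Among the lowest named genes outside the eye list was aifm2, an oxidoreductase known in human cells as a ferroptosis suppressor. It had 776 counts over the 4 surface UV-B libraries and 1 over the 3 cave UV-B libraries, a ratio of 452 (95% interval 80.9 to 17877, counting error only), and in controls it was at 15.0 ± 2.84 and 0.331 ± 0.406 normalised CPM. es1, known in zebrafish as a mitochondrial protein of cones, was at 309, 266, 314 and 366 in surface and 2.52, 1.69 and 3.86 in cave UV-B libraries (log2 fold change -6.82, SE 0.19). dgkab, a diacylglycerol kinase gene, was at -6.36 (SE 0.26) and si:dkey-206f10.1 at -6.63 (SE 0.21). In each of these the controls were called in the same direction, at -5.49 for aifm2, -6.88 for es1, -7.09 for dgkab and -5.35 for si:dkey-206f10.1.

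The interaction was lowest, among named genes called after UV-B, for transcription factor and membrane genes. tfap2c, the transcription factor AP-2 gamma, was at 43.4, 45.9, 38.5 and 44.9 normalised CPM in surface UV-B libraries, and surface controls held 45.2, 43.0, 46.0 and 49.8. In cavefish it was at 20.1, 27.2 and 35.3 in controls and 4.06, 4.30 and 4.73 after UV-B, so the log2 fold change went from -0.77 (SE 0.16) to -3.30 (SE 0.15), with an interaction of -2.56 (SE 0.23, adjusted p = 7.03e-06). prdm13, a regulator of amacrine cells in the mouse retina, was at 52.0, 53.1, 59.4 and 53.1 in surface and 6.99, 3.53 and 6.22 in cave UV-B libraries (-3.27, SE 0.17), against 31.0 ± 6.54 and 11.9 ± 1.65 in controls (interaction -1.88, SE 0.27, adjusted p = 0.000452). hs3st3b1a, a heparan sulfate sulfotransferase, and atp11a, a phospholipid flippase, had interactions of -2.15 (SE 0.37, adjusted p = 0.00232) and -1.71 (SE 0.26, adjusted p = 0.000785). In surface fish atp11a was at 37.2 ± 3.89 in controls and 34.8 ± 2.12 after UV-B, and in cavefish at 24.1 ± 5.57 and 6.97 ± 2.64.

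At the other end, beside tnfrsf9a and NPC1L1, stood gpr84, a receptor of medium-chain fatty acids on myeloid cells, with 0.233, 1.02, 0.691 and 0.545 normalised CPM in surface and 3.78, 4.76 and 6.59 in cave UV-B libraries (log2 fold change 2.96, SE 0.43). The interactions of gpr84 (2.62, adjusted p = 0.0400) and of arhgap42a, a GTPase-activating protein gene (2.56, adjusted p = 0.0370), were lost in 12 of 20 and 13 of 20 alternatives. arhgap42a was also no longer called after UV-B in 10 of 14. rgs2, a regulator of G protein signalling, had an interaction of 2.59 (SE 0.56, adjusted p = 0.0112) that held in all 20, with 2.83 ± 0.791 in surface and 5.89 ± 1.55 in cave UV-B libraries, and its call after UV-B was lost without cave UV-B replicate 4 (adjusted p = 0.0721).

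Some transcripts were near absent from the UV-B libraries of one population. Among genes whose surface UV-B libraries averaged 50 counts or more, 31 had at most 3 counts in each cave UV-B library, and 17 of these also had at most 3 in each cave control. Only aifm2 and cplx4c had a name. The reverse held for 6 genes, 5 of them also in controls and none with a name. How many genes reached that mean in each population was not counted, so 31 and 6 give no shares. Reads were mapped to a surface fish genome, so absent transcripts and cave alleles that map less well cannot be told apart here. The lowest gene without a name, ENSAMXG00000040526, was at 101, 80.7, 62.0 and 50.3 normalised CPM in surface UV-B libraries and had no count in any cave UV-B library, so it was at least 533-fold lower against a limit of 3 counts over the group. The highest, ENSAMXG00000006950, had 1158 counts over the cave UV-B libraries, at 46.3, 59.4 and 54.7 normalised CPM, and 1 count over the surface UV-B libraries, a ratio of 1988 (95% interval 356 to 78586, counting error only). Both had the same direction in controls.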

How the data were processed

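RNA sequencing was performed on whole larvae, and the authors deposited raw read counts per gene, made by mapping with STAR to A. mexicanus genome 2.0 with the annotation of Ensembl release 108. The version of STAR, the strand setting and the treatment of reads that map to several places were not stated, so near-identical copies, overlapping genes and antisense genes are uncertain. The labels gave each library its group and replicate number. Counts were analysed with edgeR 4.0.16 in R 4.3.3 (filterByExpr, TMM factors, quasi-likelihood test), with Benjamini-Hochberg adjustment over all genes tested and a threshold of 0.05. Cave and surface UV-B libraries were fitted alone, controls were fitted alone, and the interaction was fitted over all 14 libraries. Each standard error was obtained from the fold change and its F statistic. For normalised CPM, the TMM factors came from all 14 libraries. DESeq2 1.42.0, limma-voom (limma 3.58.1), other scalings, other filters, a replicate block and leaving out each library were alternatives. On simulated counts with 200 changed genes the test recovered 95.4% of 2-fold and 100% of 4-fold differences after UV-B (15470 genes) and 62.3% and 100% of interactions (15982 genes). Where no count was found, up to 3 counts remain possible, and intervals cover counting error only.

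The deposited identifiers carry no names. Names for 2078 genes were taken from the study's methods and from the name column of its gene tables, which list UV-B-responsive genes, and 12 names belong to more than 1 identifier. The members of the gene lists were chosen with earlier results of these data known. Single genes were named by a rule: cpdp, ddb2 and rpl13a, then, with a mean of at least 50 counts, an adjusted p under 0.05 and no overlap, the 12 highest and 12 lowest named genes, up to 4 called members of each list with the largest change, the 5 highest and 5 lowest interactions among called genes, and the highest and the lowest gene without a name. The other list members and the genes with opposite directions were named after their values were seen. Some genes that meet the rule are not reported here.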

Additional observations from a re-analysis of the deposited data

Results flagged for a closer look

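In 86 genes named by the rule the 4 surface UV-B libraries were examined for a library far from the others, by Dixon's ratio of gap to range at the 95% level, and 2 had one. Chance alone gives about 1 such gene in 20. ENSAMXG00000006950 had its only surface UV-B count in replicate 4 (0.109 normalised CPM), and prdm13 was highest in surface UV-B replicate 3 (59.4 normalised CPM).

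The interaction test found a population difference that was not the same after UV-B as in controls for 36 of the genes named by the rule. Among all genes tested 3.7% passed it, and 15.2% of those with a name. The rule took some genes for their interaction and others for large differences in the same libraries. The count of 36 is therefore partly fixed by that choice. Interactions are log2 values, cave minus surface after UV-B less cave minus surface in controls. Immediate early and inflammatory genes with a positive value were fosab (1.68), ier2a (1.07), fosl1a (1.81), tnfrsf9a (3.11), socs3a (1.51), map3k8 (1.07) and gpr84 (2.62). Stress and heat shock genes with a positive value were atf5b (1.17), chac1 (1.10), sesn2 (0.85), hspb9 (1.94), hspb11 (1.58) and bag3 (0.82). Genes of metabolism and gut with a positive value were ppp1r3ca (1.17), igfbp1a (0.81), pck1 (1.03), dgat1b (0.99), NPC1L1 (2.52), anpepb (0.90) and clrn3 (1.61). Muscle and signalling genes with a positive value were ankrd1a (1.00), fbxo32 (1.62), ppp1r27b (2.27), arhgap42a (2.56) and rgs2 (2.59). Genes with a negative value were the retinal genes cdhr1a (-1.52), impg1b (-2.09) and prdm13 (-1.88), the clock genes per2 (-1.17), cry1a (-0.99) and dbpb (-0.83), the synaptic genes GRM7 (-1.57) and RIMS1 (-1.03), and tfap2c (-2.56), hs3st3b1a (-2.15) and atp11a (-1.71). Not all of these calls were stable. Of 21 alternatives, 14 lost the call of pck1, 13 that of map3k8 and 12 those of socs3a, igfbp1a and fbxo32. The call of ankrd1a was lost in 11 of 21, that of bag3 in 3 and that of ppp1r3ca in 1. Of 20 alternatives, 13 lost arhgap42a, 12 gpr84, 6 impg1b, 5 cdhr1a and 1 fosl1a.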

How the results depend on the processing

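The number of genes called after UV-B stayed between 5771 and 6521 when single libraries were left out (2814 to 3238 higher, 2957 to 3287 lower, 2337 to 2483 at least 2-fold). With library totals 1567 were higher and 6651 lower, because the median over all genes moved, and with at least 10 counts in every library 1552 differed at least 2-fold, since fewer genes were tested. In controls the totals were 1192 higher and 3845 lower with library totals, 1023 at least 2-fold with at least 10 counts in every library, and between 3243 and 5206 without a single library (1472 to 2502 higher, 1729 to 2704 lower, 1551 to 1972 at least 2-fold). The interaction was called for 946 genes by DESeq2 (367 higher and 579 lower), for 128 higher and 634 lower with library totals, and for 326 to 819 without a single library (128 to 369 higher, 198 to 450 lower, 193 to 376 at least 2-fold). The number of genes called in the same direction in both comparisons ran from 2580 to 3639 without a single library. The cause of the differences between tools and libraries was not tested.

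Replicate numbers are shared between the populations. Same-numbered UV-B libraries deviated together only weakly (correlations of 0.021 to 0.184), and same-numbered controls did not (-0.196 to 0.0027). Libraries with different numbers ran from -0.138 to 0.113 after UV-B and from -0.241 to 0.375 in controls. With so few pairs these values do not settle whether the numbers pair the libraries, and the main tests did not pair them. With a replicate block 6678 genes were called after UV-B (3302 higher and 3376 lower), 2874 in controls (1240 higher) and 456 for the interaction.

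Over the named genes, 62 of 1589 alternatives lost the call after UV-B, 19 of them with library totals, and 120 of 1189 lost the interaction call. None reversed direction. For low genes the depth set the limit, since 3 counts correspond to between 0.277 and 0.460 normalised CPM in UV-B libraries.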
